A study of Drosophila melanogaster with 6 samples.

Results

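The 37 genes that *Drosophila* keeps on its mitochondrial DNA were examined in sorted enteroendocrine cells (EEs) of the adult midgut, with and without the transcription factor Pros. They were all rows of the deposited count table whose gene name starts with mt:, which are 37 of 17558 genes. This rule used no measured value, but it was chosen with earlier results of these data known. Of these, 13 encode proteins, 2 encode ribosomal RNAs and 22 encode transfer RNAs. The control samples (3) came from ProsV1-Gal4ts>UAS-GFP flies and the *pros*-depleted samples (3) from flies that also carried *pros-RNAi*. Adult females aged 5 to 7 days were kept at 29 °C for 7 days, and about 20000 GFP-positive, propidium iodide-negative cells were sorted per sample. Driver, temperature-sensitive repressor and GFP were thus shared by both groups, and EEs of all subtypes and gut regions were mixed in each sample. The genotype labels of *pros*-depleted replicates 2 and 3 read ProsV1-Gal5ts and ProsV1-Gal6ts, while the study's methods name a single driver line.

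The mitochondrial genome is a small circle that is transcribed from both strands into long precursors. Transfer RNAs lie between most of the other genes, and their excision frees the messenger and ribosomal RNAs. The messenger RNAs encode core subunits of complexes I, III, IV and V of oxidative phosphorylation, whose remaining subunits are made from nuclear genes. Complex I takes electrons from NADH, complex III passes them to cytochrome c, complex IV hands them to oxygen, and complex V is the ATP synthase. The ribosomal RNAs form the core of the mitochondrial ribosome, which translates these messengers only.

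The samples held between 27183747 and 40766059 counts on genes. The targeted gene fell from 628 ± 182 CPM (SD, n = 3; CPM are counts scaled to library size by the TMM method of edgeR) to 154 ± 14.3 CPM (SD, n = 3), with a log2 fold change of -2.03 (SE 0.237; edgeR adjusted p = 0.000763). Genes were called by the edgeR rule given below, which called 7.96% of all genes tested lower and 4.73% higher. Of 14 EE markers, 12 were called lower in *pros*-depleted EEs, the targeted *pros* among them, and *Syt4* was called higher. The summed level of the 14 was 108303 to 123936 CPM in control EEs and 7362 to 11963 CPM in *pros*-depleted EEs. The summed CPM of the 11 enterocyte markers ranged from 1613 to 4661 in control EEs and from 5908 to 13208 in *pros*-depleted EEs, and 4 of the 11 were called higher. That of the 8 progenitor markers was 248 to 342 and 605 to 825, with 5 called higher. That of 12 visceral muscle markers was 36.3 to 46.1 and 32.2 to 46.6, with *up* called lower (19.6 and 1.37 CPM) and *bt* called higher (2.79 and 11.6 CPM). The 6 hemocyte markers summed to 15.3 to 38.5 CPM in control EEs and 8.79 to 13.6 CPM in *pros*-depleted EEs, and the 4 tracheal markers to 6.67 to 9.46 and 4.59 to 5.35, with none called in either list. No marker of these lists was at 0 in all samples, and their part in the mitochondrial values was not tested. The 17 genes of the nuclear ribosomal DNA unit held 0 counts in every sample, so the denominators below contain no cytosolic ribosomal RNA from them.

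Mitochondrially encoded genes took a large share of all counts, and the share did not separate the groups. It was 17.3%, 12.5% and 11.3% in control replicates 1, 2 and 3, and 17.6%, 27.6% and 13.6% in *pros*-depleted replicates 1, 2 and 3. Control replicate 1 lay within the range of the *pros*-depleted samples, and *pros*-depleted replicate 2 stood far above all others. The means were 13.7% ± 3.20 (SD, n = 3) and 19.6% ± 7.24 (SD, n = 3), a difference of 5.93 percentage points that was smaller than the spread in the *pros*-depleted group (two-sided exact permutation test, p = 0.2, and 0.4 when adjusted over the 4 values chosen for testing, where 3 samples against 3 cannot go below 0.1). The same exact permutation test was run on 73 shares, ratios and sums in all, these 4 included, and 16 of them had p = 0.1, with an adjusted p of 0.456 over the 73. Without *pros*-depleted replicate 2 the difference was 1.93 percentage points. Counting error was negligible, since the 95% Wilson interval of a sample's share was at most 0.0327 percentage points wide, but amplified reads are not independent molecules and such intervals cover counting error only. In these sorted samples, fewer cells of a type and less RNA per cell cannot be told apart.

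Without the 2 ribosomal RNAs, the mitochondrial genes still held 8.21%, 6.06% and 5.46% of all counts in control samples and 7.58%, 12.5% and 6.18% in *pros*-depleted samples. The groups overlapped, with means of 6.58% ± 1.45 (SD, n = 3) and 8.76% ± 3.33 (SD, n = 3) and the same sample on top (exact permutation test, p = 0.4, adjusted p = 0.533). The difference of 2.18 percentage points became 0.300 without *pros*-depleted replicate 2. With the ribosomal RNAs also left out of the denominator, the shares were 9.03%, 6.47% and 5.80% in control samples and 8.42%, 14.7% and 6.67% in *pros*-depleted samples.

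**Figure D1:**
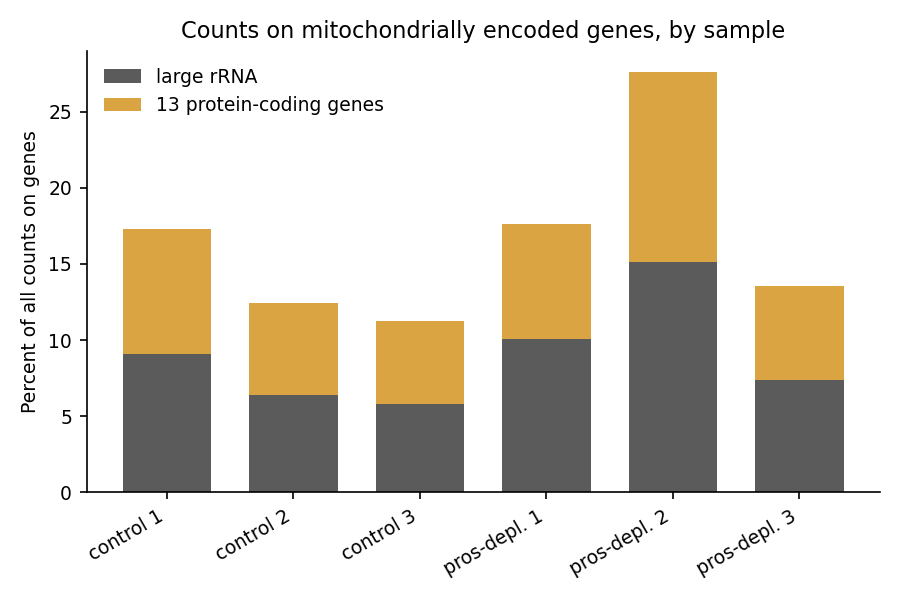
Percent of all counts on genes that fell on the large mitochondrial ribosomal RNA and on the 13 mitochondrial protein-coding genes, one stacked bar per sample; the small ribosomal RNA and the tRNA genes are too few to be seen. *pros*-depleted replicate 2 reached 27.6%, and the other 5 samples lay between 11.3% and 17.6%.

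Of the 37 genes, 18 had at least 10 counts in at least 3 samples and were tested, namely all 13 protein-coding genes, both ribosomal RNAs and 3 tRNAs. None was called, which required an edgeR adjusted p below 0.01 together with a log2 fold change beyond 0.5 in either direction, while 12.7% of the 10374 genes tested were called. At an unadjusted p under 0.05 there were 4 members of 18, against 38.7% of all genes tested. DESeq2, run as an alternative, called 3 members higher (*mt:srRNA*, *mt:ATPase6* and *mt:ND5*) and none lower, against 21.6% of all genes that it called in either direction and 9.41% that it called higher. The estimates were positive in 17 of the 18 members, with a median log2 fold change of 0.58, beside a median of 0.02 and 51.4% positive over all genes tested. These members share samples and precursors and are not independent of each other. In 3 of 18 members every *pros*-depleted sample lay above every control sample, and in none below, against 20.4% and 22.5% of all genes.

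By the median, the abundant members had larger standard errors than nuclear genes above the same limit. The standard error of the log2 fold change had a median of 0.352 over the 8 members with a mean of at least 1000 CPM. It was 0.189 over 146 nuclear genes with a mean of at least 1000 CPM. Levels were not matched beyond this limit, and *mt:lrRNA* had a mean of 73693 CPM in control EEs. Among listed nuclear genes, *AstC* (34255 CPM in control EEs) had a standard error of 0.369 and *CG1746* (2475 CPM) one of 0.190. Of the 15 protein-coding and ribosomal RNA members, 10 were highest in *pros*-depleted replicate 2. *pros*-depleted replicate 1 was highest in 4 others, *mt:ND3*, *mt:ND4L*, *mt:ND6* and *mt:srRNA*, and control replicate 1 in *mt:CoII*.

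**Figure D2:**
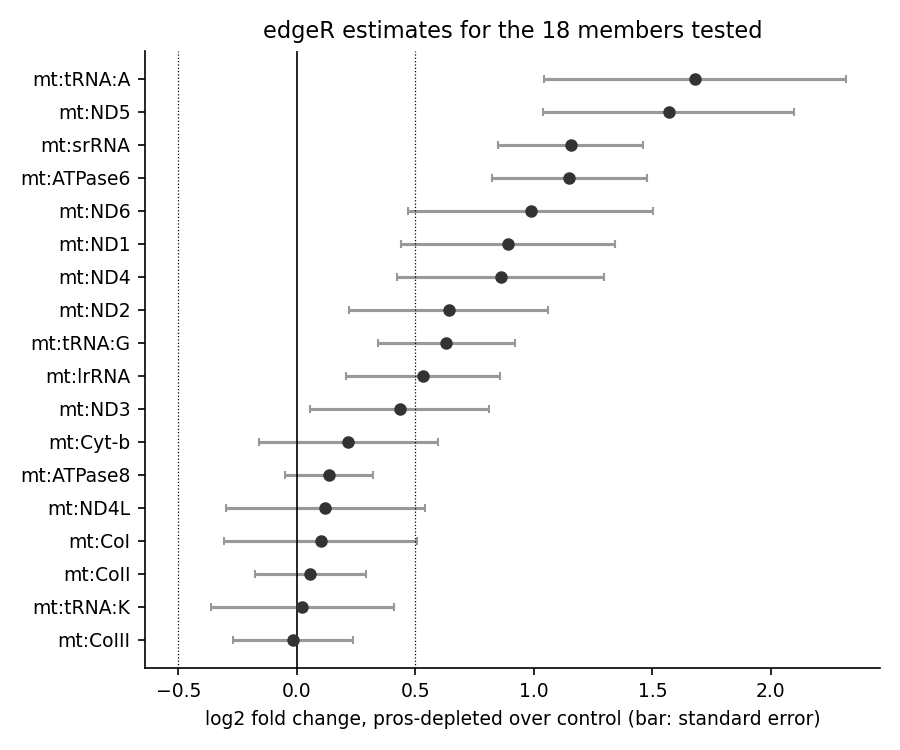
Log2 fold change (*pros*-depleted over control, x axis) of each of the 18 members tested, as points with standard errors from edgeR; dotted lines mark the threshold of 0.5 in each direction. The estimates run from -0.02 for *mt:CoIII* to 1.68 for *mt:tRNA:A*, and none passed the adjusted p threshold.

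The ribosomal RNAs differed widely in counts, with the large one first and the small one among the lower members. *mt:lrRNA*, the large subunit RNA (chromosome M, 12734 to 14058, minus strand, BDGP6 as annotated in the table), alone took 9.09%, 6.39% and 5.81% of all counts in control samples and 10.05%, 15.1% and 7.37% in *pros*-depleted samples. It ranked first of all genes in the table by CPM per kb of gene length in both groups, with 55617 ± 13080 and 80487 ± 36139 (SD, n = 3 each). Its groups overlapped, and its log2 fold change of 0.53 did not pass the test (SE 0.325; edgeR adjusted p = 0.266) and was 0.13 without *pros*-depleted replicate 2.

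*mt:srRNA*, the small subunit RNA (chromosome M, 14131 to 14916, minus strand), had 2060, 1650 and 2441 counts in control samples and 5993, 2150 and 4160 in *pros*-depleted samples. Scaled to CPM, every *pros*-depleted sample lay above every control sample, with 51.8, 58.9 and 70.2 CPM against 188, 78.7 and 136.5 CPM. Its log2 fold change was 1.16 (SE 0.307), and its edgeR adjusted p of 0.0276 was the smallest among the members but did not pass 0.01. It was called when *pros*-depleted replicate 2 was left out, with an estimate of 1.44 on the log2 scale and an edgeR adjusted p of 0.00535. With any other sample left out it was not called, with log2 estimates of 0.85 to 1.27 and edgeR adjusted p of 0.0466 to 0.0943. The ribosome contains both RNAs in equal number, but the counts of the large one exceeded those of the small one 1799, 1146 and 859 times in control samples and 505, 2023 and 482 times in *pros*-depleted samples. This ratio overlapped between the groups and varied most in *pros*-depleted EEs (difference of the means -265, exact permutation test, p = 0.6, adjusted p = 0.6), and the difference was 0.895 when control replicate 1 was left out. The RNA was labelled as polyadenylated and was amplified. Whether this bears on the ratio was not tested, and the counts are no measure of ribosomes.

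Relative to the messengers, the large ribosomal RNA was slightly higher in *pros*-depleted EEs. Its counts were 1.11, 1.05 and 1.06 times those of the 13 protein-coding genes together in control samples, and 1.33, 1.21 and 1.19 times in *pros*-depleted samples. The groups did not overlap, and all 6 samples kept a ratio near 1 while the total mitochondrial share ranged from 11.3% to 27.6%. This ratio was looked at after the values were known and is given as a description (exact permutation test, p = 0.1, unadjusted).

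Protein-coding genes fell into distinct tiers of level per length in control EEs. *mt:CoI* (17580 ± 4213 CPM per kb, SD, n = 3), *mt:CoII* (16269 ± 3628) and *mt:CoIII* (14393 ± 2567), the catalytic core of complex IV, and *mt:ATPase6* (13012 ± 3324), the membrane subunit of ATP synthase that forms part of its proton path, overlapped with their neighbours in this order. *mt:Cyt-b* (4577 ± 896), the only mitochondrially encoded subunit of complex III, and *mt:ND4* (2469 ± 725) followed, each apart from the gene above it. *mt:ND1* (1224 ± 604) overlapped with *mt:ND4*. Below a 7.40-fold step came *mt:ND3* (165 ± 47.6), *mt:ND5* (113 ± 22.4), *mt:ND2* (74.6 ± 39.1) and *mt:ATPase8* (69.3 ± 10.1), each of which overlapped with the next, with *mt:srRNA* between *mt:ND5* and *mt:ND2*. *mt:ND6* (12.2 ± 1.82) and *mt:ND4L* (6.35 ± 1.41) were lowest and apart from each other. All 7 ND genes encode membrane subunits of complex I, yet their levels per kb spanned from 6.35 to 2469. In *pros*-depleted EEs the order was the same except that *mt:ATPase6* stood second after *mt:lrRNA*, with 28865 ± 11459 CPM per kb, and *mt:ND5* stood above *mt:ND3*. In both cases the samples of the neighbours concerned overlapped.

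**Figure D3:**
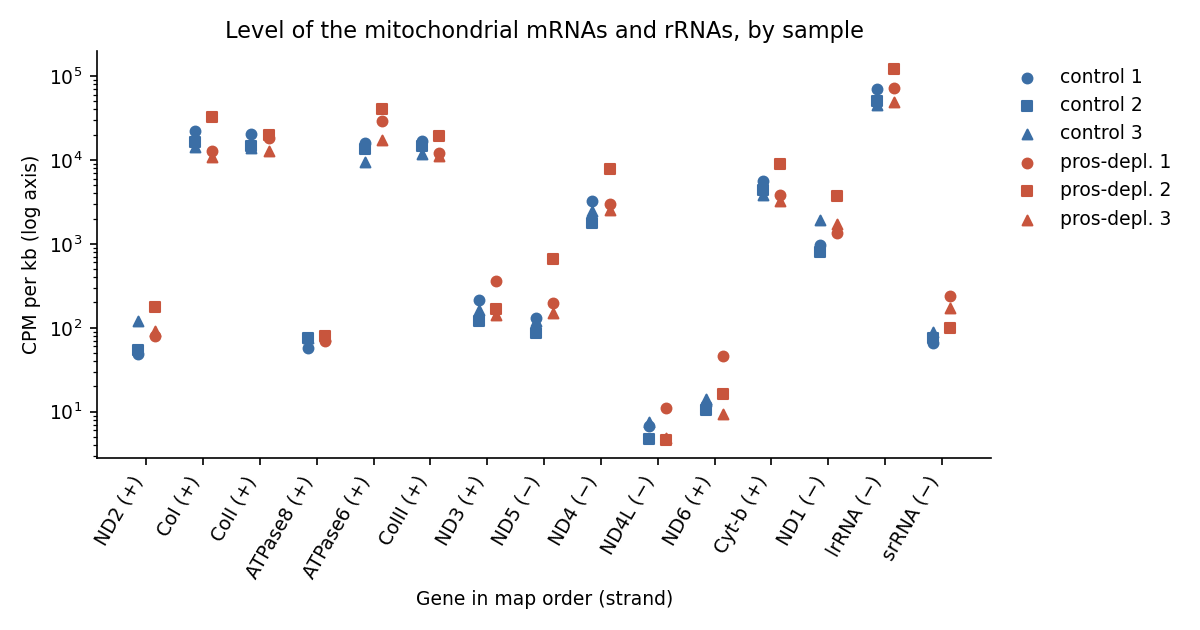
Level of each protein-coding and ribosomal RNA member in CPM per kb (log axis), in the order of the genes on the map with the coding strand in brackets; points are single samples, blue for control and red for *pros*-depleted. Levels run from a few CPM per kb for *mt:ND4L* to a mean of 80487 for *mt:lrRNA* in *pros*-depleted EEs, and several of the steps between genes exceed the spread between samples.

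Neighbouring genes that are known to share a messenger differed widely, and in each pair the downstream gene held nearly all of the counts. *mt:ATPase8* (3907 to 4068, plus strand), a short membrane subunit of complex V, and *mt:ATPase6* (4062 to 4736) share 7 bp. *mt:ATPase8* had 371, 340 and 425 counts in control samples and 355, 354 and 394 in *pros*-depleted samples, while *mt:ATPase6* had 428287, 258260 and 220905 and then 630187, 739575 and 354335. Per kb, *mt:ATPase6* exceeded *mt:ATPase8* 125 to 277 times in control samples and 216 to 501 times in *pros*-depleted samples.

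The same held on the minus strand for *mt:ND4L* (9544 to 9834) and *mt:ND4* (8206 to 9544), which share 1 bp. *mt:ND4L* had 78, 39 and 76 counts in control samples and 104, 37 and 43 in *pros*-depleted samples, and *mt:ND4* exceeded it per kb 327 to 474 times and 268 to 1696 times. The pair of *mt:ND6* (9970 to 10494, plus strand) and *mt:Cyt-b* (10498 to 11634) showed ratios of 269 to 467 and 82.2 to 544, and the lowest value belonged to *pros*-depleted replicate 1. Neither the handling of reads that touch 2 genes nor the position of reads within genes was given in the sources used here, so levels of different members show where counted reads fell and cannot be read as molecules.

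*mt:ATPase6* had the smallest adjusted p among the messengers. It had 10778, 9217 and 6355 CPM in control samples and 19738, 27089 and 11626 CPM in *pros*-depleted samples, so that every *pros*-depleted sample lay above every control sample. The means were 8783 ± 2244 and 19484 ± 7735 CPM (SD, n = 3 each), with an estimated log2 difference of 1.15 (SE 0.327) and an edgeR adjusted p of 0.0350, which did not pass 0.01. Over the 14 alternative fits its log2 fold change stayed between 0.85 and 1.43, with adjusted p between 0.00286 (DESeq2) and 0.101 (edgeR or DESeq2, Benjamini-Hochberg). *mt:CoIII* (4736 to 5524), which begins at the last base of *mt:ATPase6* on the same strand, had 13334, 11447 and 9286 CPM in control samples and 9451, 15306 and 8900 CPM in *pros*-depleted samples. Its log2 fold change was -0.02 (SE 0.252; edgeR adjusted p = 0.968). As a ratio of counts within each sample, *mt:ATPase6* to *mt:CoIII* was 0.808, 0.805 and 0.684 in control samples and 2.09, 1.77 and 1.31 in *pros*-depleted samples, a pair chosen after the values were seen and given as a description (exact permutation test, p = 0.1, unadjusted).

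The other complex IV subunits, and *mt:Cyt-b* of complex III, showed no separation either. *mt:CoI* (1474 to 3009), which carries the site of oxygen reduction, had 34220, 25067 and 21720 CPM in control samples and 19685, 50321 and 16787 CPM in *pros*-depleted samples. Its *pros*-depleted samples thus included the highest and the 2 lowest values, and its log2 fold change was 0.10 (SE 0.409; edgeR adjusted p = 0.882). *mt:CoII* (3083 to 3767), which receives electrons from cytochrome c, had a log2 fold change of 0.06 (SE 0.235) and *mt:Cyt-b* one of 0.22 (SE 0.377). The sign of *mt:CoI* and *mt:Cyt-b* turned without *pros*-depleted replicate 2, to -0.56 and -0.37.

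Among the complex I subunits, *mt:ND5* (6402 to 8124, minus strand), a large subunit of the proton-pumping arm, had the largest estimate. It had 223, 151 and 209 CPM in control samples and 336, 1138 and 256 CPM in *pros*-depleted samples. The groups did not overlap, but *pros*-depleted replicate 2 was several times above the others and the log2 fold change of 1.57 did not pass the test (SE 0.528; edgeR adjusted p = 0.0617). Without that replicate its estimate was 0.62. *mt:ND4*, also of the proton-pumping arm, had 4283, 2343 and 3293 CPM and then 4023, 10574 and 3395 CPM, and *mt:ND1* (11720 to 12658, minus strand), which lies at the junction with the peripheral arm, had 901, 750 and 1799 CPM and then 1280, 3509 and 1605 CPM. Both overlapped between the groups, with log2 fold changes of 0.86 (SE 0.438) and 0.89 (SE 0.450). Without *pros*-depleted replicate 2 they were 0.18 and 0.34, and without control replicate 3 *mt:ND1* was at 1.36. The plus-strand genes *mt:ND2* (240 to 1265), *mt:ND3* (5608 to 5961) and *mt:ND6* also overlapped, with log2 fold changes of 0.64, 0.43 and 0.99. *mt:ND2* was at 0.20 without *pros*-depleted replicate 2 and at 1.15 without control replicate 3, and *mt:ND3* was at -0.09 without *pros*-depleted replicate 1. *mt:ND6* had 24.5 CPM in *pros*-depleted replicate 1 and between 4.95 and 8.61 CPM in the other 5 samples, and its estimate was 0.09 without that replicate. *mt:ND4L* and *mt:ATPase8* had log2 fold changes of 0.12 and 0.14.

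Of the protein-coding genes, 9 lie on the plus strand and 4 on the minus strand. The minus-strand genes held 6.42%, 5.07% and 9.35% of the mitochondrial protein-coding counts in control samples and 7.89%, 11.5% and 9.54% in *pros*-depleted samples. The groups overlapped, with means of 6.95% ± 2.19 and 9.65% ± 1.82 (SD, n = 3 each; exact permutation test, p = 0.2, adjusted p = 0.4). Nearly all of the minus-strand messenger counts belonged to *mt:ND4* and *mt:ND1*. The sources used here do not give whether counting used strand.

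The make-up of the mitochondrial messengers, which does not depend on how libraries are scaled, differed between the groups most in complexes IV and V. Complex IV genes held 73.1%, 72.6% and 71.5% of the mitochondrial protein-coding counts in control samples and 58.1%, 60.1% and 62.4% in *pros*-depleted samples. Complex V genes, almost all of them *mt:ATPase6*, held 12.8%, 14.4% and 11.2% and then 27.6%, 20.5% and 21.1%. Neither share overlapped between the groups, while the CPM of 43.0% of all genes tested did not overlap either. Neither was among the 4 values chosen for testing. Each had p = 0.1 in the exact permutation test, the smallest possible here, and an adjusted p of 0.456 over the 73 tests run. Complex I genes held 5.23% to 9.68% and 8.22% to 11.7%, and *mt:Cyt-b* 7.50% to 7.78% and 6.09% to 7.68%, and these overlapped. Since the shares add up to a fixed total, a larger share of one gene lowers the others.

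Gene by gene, 3 of the 13 shares did not overlap between the groups, while the CPM of 43.0% of all genes tested did not overlap. *mt:ATPase6* went from 12.8% ± 1.6 to 23.1% ± 3.93 (SD, n = 3 each), *mt:ND5* from 0.290% ± 0.0702 to 0.599% ± 0.228, and *mt:CoI* from 39.4% ± 1.18 to 32.04% ± 5.46. Each had p = 0.1 in a two-sided exact permutation test, the smallest that 3 samples against 3 allow, and 0.433 after adjustment over the 13 genes. Without control replicate 3, 6 of the 13 shares did not overlap. For *mt:CoI* the gap was narrow, with 38.3% in the lowest control sample and 38.1% in *pros*-depleted replicate 2. With counts divided by gene length before taking shares, *mt:CoI* overlapped between the groups, *mt:CoIII* did not (19.7%, 21.9% and 20.3% in control samples, 14.8%, 14.5% and 18.8% in *pros*-depleted samples), and *mt:ATPase6* and *mt:ND5* again did not.

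**Figure D4:**
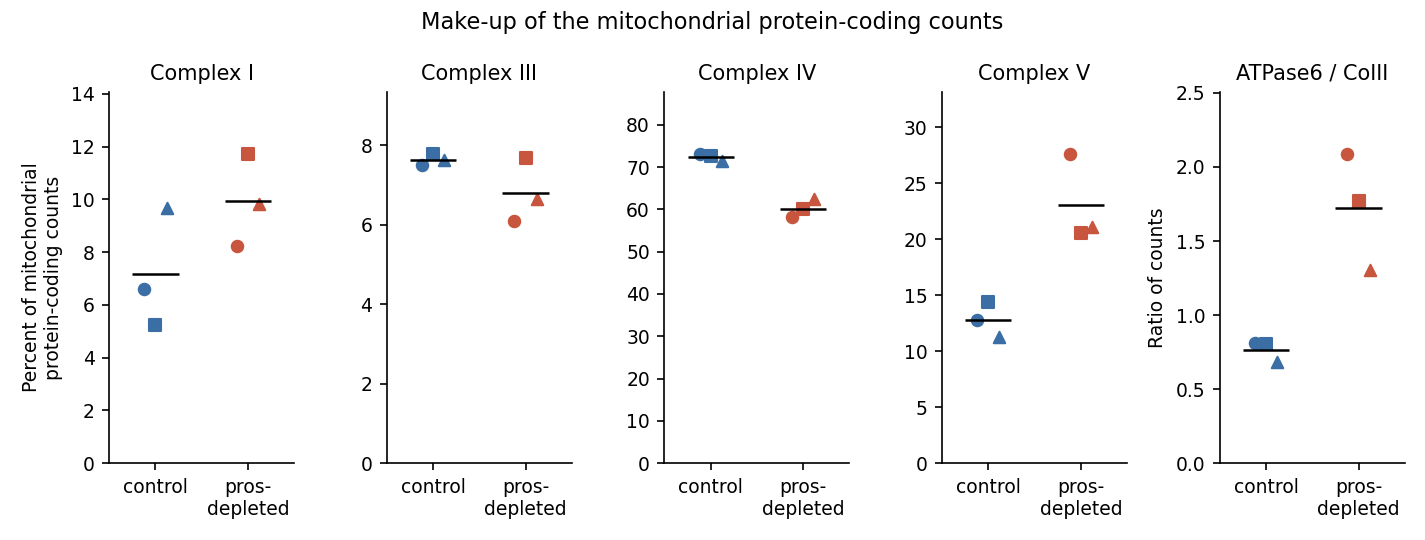
Share of the mitochondrial protein-coding counts held by the genes of complexes I, III, IV and V (percent, first 4 panels) and the ratio of *mt:ATPase6* to *mt:CoIII* counts (last panel); points are samples, marked by replicate, and lines are group means. Complex IV lies at 71.5% to 73.1% in control and 58.1% to 62.4% in *pros*-depleted samples, complex V at 11.2% to 14.4% and 20.5% to 27.6%.

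The 22 tRNA genes had few counts in these libraries, 731, 501 and 481 counts in all in control samples and 685, 770 and 357 in *pros*-depleted samples. Of them, *mt:tRNA:E* (6252 to 6318) had 0 counts in every sample, for which a floor of 3 counts is 0.0755 to 0.110 CPM per sample, and 19 did not pass the filter. *mt:tRNA:K* and *mt:tRNA:G* held 77.2% of the tRNA counts in *pros*-depleted replicate 1 and 91.1% to 92.4% in the other samples. *mt:tRNA:K* (3768 to 3838), the tRNA for lysine, begins at the base after *mt:CoII* and had 511, 371 and 268 counts in control samples and 352, 476 and 180 in *pros*-depleted samples. *mt:tRNA:G* (5543 to 5607), the tRNA for glycine, begins 18 bases after *mt:CoIII* and had 155, 92 and 175 counts and then 177, 232 and 150. Other tRNAs close behind an abundant gene had fewer counts. *mt:tRNA:L:UUR*, 2 bases behind *mt:CoI*, had 9 counts over all samples, and *mt:tRNA:L:CUN*, directly behind *mt:lrRNA* on the minus strand, had 38. A relation between position and tRNA counts was not tested.

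The third tRNA tested, *mt:tRNA:A* (5981 to 6045) for alanine, had 11, 12 and 14 counts in control samples and 69, 28 and 11 in *pros*-depleted samples. Its log2 fold change of 1.68 was the highest estimate of the members but had the largest standard error, 0.637, and did not pass the test (adjusted p = 0.0895 from edgeR). The estimate was 0.91 when *pros*-depleted replicate 1 was left out. The tRNA counts other than those of *mt:tRNA:K* and *mt:tRNA:G* were 65, 38 and 38 in control samples and 156, 62 and 27 in *pros*-depleted samples. Replicate 1 of the latter was thus high in these remaining tRNAs, with 69 of the 156 counts on *mt:tRNA:A*, but not in all tRNA counts together. It was also high in *mt:ND6*, *mt:ND4L* and *mt:srRNA*.

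Among the nuclear genes that copy and transcribe mitochondrial DNA or process its RNA, no gene was called. Of 24 such genes in the table, 3 (*mtTFB1*, *DNApol-gamma35* and *CG33714*) had 0 counts in all samples, and of 21 tested, 3 (*bsf*, *mTTF* and *JhI-1*, the last 2 named after their values were seen) were at an adjusted p under 0.05 against 26.1% of all genes tested. DESeq2 called *bsf* and *JhI-1* higher, 2 of 21, against 9.41% of all genes. Their median log2 fold change was 0.09. *mtRNApol*, the mitochondrial RNA polymerase, was at 5.95 CPM in control and 6.10 CPM in *pros*-depleted EEs (log2 fold change 0.04, SE 0.202), and its cofactor *mtTFB2* at 5.55 and 5.90 CPM (0.09, SE 0.208). *TFAM*, which packages the DNA and helps to start transcription, was at 37.1 and 51.1 CPM (0.46, SE 0.164; edgeR adjusted p = 0.0735). *bsf*, an RNA-binding protein that in *Drosophila* stabilises mitochondrial messengers, was at 18.5 and 31.8 CPM (0.78, SE 0.179; edgeR adjusted p = 0.0154), and its relative *CG14786* (*Lrpprc2*) at 8.89 and 14.2 CPM (0.67, SE 0.389). Of the 21 tested, *TFAM*, *bsf*, *mTTF* and *JhI-1* had all *pros*-depleted samples above all control samples, against 20.4% of all genes tested. None of them was called.

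Of 9 genes of mitochondrial biogenesis and dynamics, 8 were tested and only *srl* was called, against 12.7% of all genes called in either direction and 4.73% called higher. *srl*, the fly counterpart of the PGC-1 coactivators of mitochondrial gene expression, rose from 6.79 to 18.8 CPM, or by 1.47 on the log2 scale (SE 0.299; edgeR adjusted p = 0.00924), and every *pros*-depleted sample lay above every control sample. Its call was narrow, and it was held in 8 of 14 alternative fits. It was lost with the replicate block (1.38, edgeR adjusted p = 0.0173) and without any one sample other than *pros*-depleted replicate 2, where the log2 fold changes were 1.43 to 1.65 and edgeR adjusted p of 0.0116 to 0.0402, and it was called without replicate 2, at 1.05 (edgeR adjusted p = 0.00834). The direction of *Pink1*, a kinase that marks damaged mitochondria, was opposite (31.3 and 17.9 CPM, log2 fold change -0.81, edgeR adjusted p = 0.0282), and it was not called and is named after its value was seen.

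The listed nuclear-encoded genes of oxidative phosphorylation overlapped between the groups in their summed level. They were picked by the start of their gene symbols. Subunits with other symbols are therefore missing, and scarce relatives of subunits are included. Over 91 such genes the summed level was 14536, 14321 and 12986 CPM in control samples and 13825, 14025 and 16221 CPM in *pros*-depleted samples. Of the 91 genes, 4 had 0 counts in all samples. Of 70 tested, none was called higher and 2 were called lower (against 4.73% and 7.96% of all genes), and their median log2 fold change was 0.05. The 2 genes were *CG14508* and *CG11423*, named as relatives of cytochrome c1 and of a complex I subunit, and both had under 2 CPM in control EEs. *CG14508* had 28, 20 and 29 counts in control samples and 2, 2 and 4 in *pros*-depleted samples. *CG11423* had 76, 51 and 49 and then 5, 9 and 8. Both thus passed the filter on counts only through the control samples, where they were high, so the filter itself favoured a lower call. With any control sample removed, neither reached the filter on counts. Without a *pros*-depleted sample 1 of the 2 passed each time, with edgeR adjusted p of 0.00535 to 0.0134 and log2 fold changes of -2.51 to -3.39. *pros*-depleted replicate 2, which had the highest mitochondrial share, had 14025 CPM of nuclear subunits, within the control range. Over the listed genes, the ratio of mitochondrially to nuclear-encoded complex V CPM was 1.81, 1.64 and 1.22 in control samples. It was 3.50, 4.05 and 1.65 in *pros*-depleted samples, and the lowest of these lay below the highest control sample. For complex IV it was 24.1, 16.4 and 16.2 and then 15.6, 34.3 and 10.8.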

How the data were processed

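RNA of sorted EEs was amplified, sequenced and mapped to BDGP6 by the authors, who counted reads per gene with featureCounts 1.6.3 and deposited raw counts of 17558 genes. The aligner, the strand setting and the treatment of reads with several positions are not given in the sources used here. Coordinates are those of the table. Of its 15 mitochondrial protein-coding and rRNA genes, 7 have equal coordinates in a later BDGP6 annotation, so no sequence was taken by position. Genes reaching 10 counts in 3 or more samples (10374) were compared by the quasi-likelihood test of edgeR 4.0.16 in R 4.3.3, with TMM scaling and Benjamini-Hochberg adjustment over all of them, and called at an adjusted p below 0.01 with a log2 fold change beyond 0.5 in either direction. The SE of a log2 fold change is its size over the root of F. Shares were compared with exact permutation tests in scipy 1.17.1, and figures drawn with matplotlib 3.10.9. The edgeR and DESeq2 fits were first run on simulated counts with the same dispersion for every gene. The exact permutation tests were not run on simulated data. The edgeR p values set the group difference against variation between these samples, and the permutation p values come from rearranging the samples. No pair in a group agreed within counting noise (chi-square per degree of freedom 140 to 334). Alternatives were DESeq2 1.42.0, other scalings (RLE, library size, without mitochondrial rRNAs, nuclear genes only), other filters and thresholds, a replicate block and leaving out each sample. All members were named; listed nuclear genes were named when called, when fixed in the list rule, or as stated. Older symbols were matched through RefSeq names. Members and lists were chosen with earlier results of these data known.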

Additional observations from a re-analysis of the deposited data

How the results depend on the processing

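The count of members called higher was 0 in edgeR, 3 with DESeq2, 2 with an adjusted p under 0.05 and 0 to 1 when single samples were left out; none was called lower in any fit. Scaling on nuclear genes alone, or without the mitochondrial rRNAs, called none. The replicate numbers are not known to pair samples (same-numbered deviations correlated at -0.164, 0.196 and 0.0995), and with a replicate block 0 members were called. Within numbers, the differences in the mitochondrial share, that without rRNAs, the minus-strand share and the rRNA ratio had p of 0.25, 0.5, 0.25 and 0.75 (exact permutation test). Within numbers this test cannot go below 0.25, so it could not have passed any threshold used here. Machinery genes called higher numbered 0, 2 with DESeq2 and 3 at an adjusted p under 0.05. Nuclear oxidative phosphorylation genes called higher numbered 0, and 1 without a filter or at an adjusted p under 0.05; those called lower numbered 2, and 0 at a mean of at least 50 counts, 1 with the block, 4 at an adjusted p under 0.05 and 0 to 1 without single samples. Without single samples, the difference in the large to small rRNA ratio ranged from -774.5 to 0.895, and the number of protein-coding shares that did not overlap from 3 to 6. The log2 fold changes that changed sign without single samples were those of *mt:CoI* (-0.56 to 0.39), *mt:CoII* (-0.0705 to 0.26), *mt:CoIII* (-0.30 to 0.14), *mt:Cyt-b* (-0.37 to 0.49), *mt:ND3* (-0.0869 to 0.69), *mt:ND4L* (-0.41 to 0.34) and *mt:tRNA:K* (-0.40 to 0.35). With the block *mt:CoI* was at -0.0646 and *mt:tRNA:K* at -0.0667, without a filter *mt:tRNA:K* was at -0.0107, and by library size alone *mt:CoIII* was at 0.0739. The cause was not tested. Depth was not varied, and 19 tRNA genes had too few counts to be tested.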
